A study of Mus musculus with 2 samples.

Results

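Neurog1, Neurog2 and Atoh1 encode proneural transcription factors, and each was assigned exactly 1 peak in a deposited list of 2560 peaks of the histone variant macroH2A1 in E14 cells, an established line of mouse embryonic stem cells. The genes were chosen because the list assigns a peak to each of them, so having a peak is the rule of choice and not a result: they were selected on the deposited peak positions and their assignment to genes. All 3 genes of the rule were found, by the symbol entry of the list, and 3 of the 2560 peaks belong to them. The peaks of other genes within 300 kb of a gene start were added for context.

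Proneural factors are basic helix-loop-helix (bHLH) proteins that pair with E proteins, bind the E-box CANNTG and commit progenitors to a neural fate. Notch signalling and Id proteins hold them in check. Neurog1 is best known for specifying cranial sensory neurons, Neurog2 for cortical and spinal neurons, and Atoh1 for cerebellar granule neurons and inner-ear hair cells. MacroH2A1 is an H2A variant with a large extra domain and is often found in silent chromatin.

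The study comprised 2 libraries from untreated E14 cells grown with leukemia inhibitory factor. Chromatin was immunoprecipitated with an antibody raised against residues 128 to 361 of mouse macroH2A1 in 1 library and with non-specific IgG in the other. The peak list belongs to the macroH2A1 library. There are no replicates, the list gives no read count, score or enrichment per peak, and the depth of the libraries is unknown. Each value is therefore the authors' single position or a distance computed from it, without an error, and no test was made. RNA was not measured, so nothing is known here of the expression of the 3 genes in these cells. Positions of peaks and genes are those of the deposited list, in mouse build mm9 (NCBIM37).

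None of the 3 peaks touched the start of its gene, as was the case for all but 30 of the 2560 peaks. The starts are shown by the RefSeq promoters, which run from 250 bases before to 50 bases after the RefSeq start, with matches to the E-box CANNTG in capitals. They belong to build GRCm38.p6, so their coordinates cannot be set beside the mm9 positions of the peaks. The DNA of the peaks themselves is not shown, because no genome of their build was used here.
Neurog1 (GRCm38.p6, chr13:56252131-56252430, minus strand): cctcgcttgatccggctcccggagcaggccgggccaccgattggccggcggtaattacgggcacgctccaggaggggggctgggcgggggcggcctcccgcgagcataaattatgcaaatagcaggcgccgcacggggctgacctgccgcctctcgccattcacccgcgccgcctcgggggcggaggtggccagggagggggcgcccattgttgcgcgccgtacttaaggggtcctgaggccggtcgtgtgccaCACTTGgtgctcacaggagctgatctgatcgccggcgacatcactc
Neurog2 (GRCm38.p6, chr3:127632886-127633185, plus strand): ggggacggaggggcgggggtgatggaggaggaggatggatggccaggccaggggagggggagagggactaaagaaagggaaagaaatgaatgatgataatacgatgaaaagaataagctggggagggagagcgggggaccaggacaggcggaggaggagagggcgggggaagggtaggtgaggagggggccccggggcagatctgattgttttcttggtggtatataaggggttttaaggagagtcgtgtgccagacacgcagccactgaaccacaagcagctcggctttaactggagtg
Atoh1 (GRCm38.p6, chr6:64728875-64729174, plus strand): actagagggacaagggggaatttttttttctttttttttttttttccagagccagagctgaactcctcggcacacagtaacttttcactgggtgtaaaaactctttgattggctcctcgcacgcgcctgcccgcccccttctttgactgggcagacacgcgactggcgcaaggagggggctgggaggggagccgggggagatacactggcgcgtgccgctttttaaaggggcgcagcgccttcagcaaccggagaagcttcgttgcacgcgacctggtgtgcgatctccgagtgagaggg

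The Neurog1 promoter held 1 match to the E-box, with the letters CACTTG, and the windows of Neurog2 and Atoh1 held none. The motif reads the same on both strands as a pattern, so a single search covers both. Of 32851 RefSeq promoters of the same length, 72.3% held at least 1 match. CpG dinucleotides numbered 32 in the Neurog1 window, 10 in the Neurog2 window and 20 in the Atoh1 window, against a median of 7 over all promoters. The Neurog1 window was the richest of the 3, with fewer CpG dinucleotides in 90.5% of all promoters. That share was 73.5% for the Atoh1 window and 56.5% for the Neurog2 window, which was thus close to the middle. The start that the list uses for Neurog1 can lie apart from the RefSeq start, since the gene is 735 bp long in the list and 1703 bp in RefSeq. The lengths were closer for Neurog2 (2490 bp in the list and 2904 bp in RefSeq) and for Atoh1 (2108 bp and 2121 bp).

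The Neurog1 peak was the nearest of the 3 to its gene. It lay on chromosome 13 at 56365650 to 56367550, upstream of Neurog1 (ENSMUSG00000048904, 56352559 to 56353293, minus strand). Its nearest base was 12.4 kb from the gene start and its farthest 14.3 kb. Of all peaks in the list, 720 (28.1%) lay closer to the start of their assigned gene, and the median gap over all peaks was 32.2 kb. Within the class that the authors call upstream, 396 of 1316 peaks (30.1%) were closer. The peak was 1901 bp wide, against a median of 1551 bp over all peaks, and 471 peaks (18.4%) were wider.

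No other peak lay within 300 kb of the start of Neurog1. On the downstream side the next peak was 436 kb from the gene start, at 55915200 to 55917000, and was assigned to Pitx1, a homeobox gene of hindlimb and pituitary development. On the upstream side the next lay 986 kb from the gene start, at 57338850 to 57340250, and was assigned to ENSMUSG00000077279, a gene without a symbol in the list. In the order of protein-coding genes in the RefSeq table, Tifab, Macroh2a1 and Pitx1 follow each other on the downstream side of Neurog1. Macroh2a1 encodes the histone variant that was immunoprecipitated. By that order it falls in the interval between the Pitx1 peak and the Neurog1 peak, in which the list has no peak. On the upstream side the nearest protein-coding gene in the table is Cxcl14, a chemokine gene. Where its body lies in mm9 is not given by the list.

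The Neurog2 peak was the widest of the 3 and lay on the other side of its gene. It was found on chromosome 3 at 127400050 to 127402400, downstream of Neurog2 (ENSMUSG00000027967, 127336056 to 127338545, plus strand). The gap from the gene start was 64.0 kb, and from the gene end 61.5 kb. Of all peaks, 1681 (65.7%) were closer to their gene start, and of the 834 peaks in the authors' downstream class 447 (53.6%) were. It was 2351 bp wide, and 82 of the 2560 peaks (3.20%) were wider.

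The Neurog2 peak lay inside the body of a neighbouring gene, Alpk1. Of all 2560 peaks, 53 (2.07%) lay inside a gene other than their own, and of the 834 in the downstream class 28 (3.36%) did. Only genes that the list assigns to a peak were searched, so peaks inside further genes were not counted. Alpk1, an alpha-kinase gene of innate immunity, spans 127373850 to 127483414 on the minus strand in the list, so Neurog2 and Alpk1 are transcribed towards each other. The gene bodies are 35.3 kb apart, and the peak lay 26.2 kb inside Alpk1, counted from the end of that gene. It was 64.0 kb from the start of Neurog2 and 81.0 kb from the start of Alpk1, and by the rule of the nearest start it was listed under Neurog2. A second peak, 14.8 kb farther on at 127417200 to 127418550, was also inside Alpk1 and had the reverse relation. It lay 64.9 kb from the start of Alpk1 and 81.1 kb from that of Neurog2, and was assigned to Alpk1. The second peak was 1351 bp wide, less than the median of the list. These were the only peaks of the list within Alpk1 and the only peaks within 1 Mb of the start of Neurog2. Upstream of Neurog2 the nearest peak was 4.54 Mb away, at 122791050 to 122792150, and was assigned to Myoz2, a gene for a Z-disc protein of muscle.

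The Atoh1 peak was the most distant and the narrowest of the 3. It lay on chromosome 6 at 64536400 to 64537850, upstream of Atoh1 (ENSMUSG00000073043, 64679119 to 64681226, plus strand). The gap to the gene start was 141 kb, more than for 2131 of the 2560 peaks (83.2%) and for 1116 of the 1316 upstream peaks (84.8%). The width was 1451 bp, and 1496 peaks (58.4%) were wider.

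The surroundings of the Atoh1 peak held few peaks. No other peak lay within 1 Mb of the start of Atoh1. On the upstream side the next peak was 1.97 Mb from the gene start. On the downstream side the nearest peak was 3.96 Mb away, at 68641450 to 68642800, and was assigned to a gene without a symbol, ENSMUSG00000076528. The stretch that follows the Atoh1 gene, where its known autoregulatory enhancer lies in mouse, thus held no peak of the list.

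**Figure D1:**
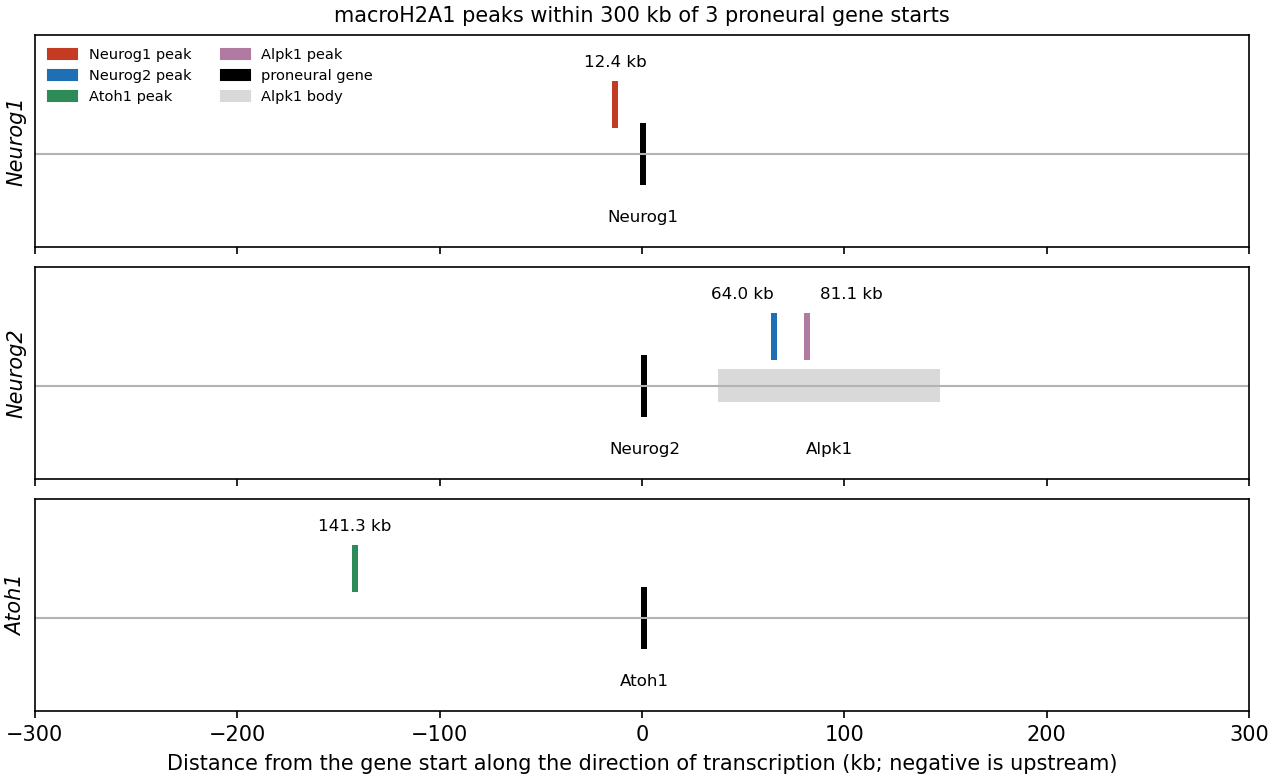
Position of each macroH2A1 peak within 300 kb of the starts of Neurog1, Neurog2 and Atoh1, in kb along the direction of transcription (negative is upstream), with the gap to the gene start printed above each peak; peaks and the 3 genes are drawn at least 3 kb wide, and the grey bar is the body of Alpk1, other genes not being drawn. The peaks of Neurog1 and Atoh1 stand upstream at 12.4 and 141 kb and that of Neurog2 downstream at 64.0 kb, and the Neurog2 peak falls within the grey bar.

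The 3 peaks thus differed in side, distance and width. Those of Neurog1 and Atoh1 were upstream and that of Neurog2 downstream, and both the nearest (Neurog1) and the farthest (Atoh1) were upstream. In width the order was Neurog2 (2351 bp), Neurog1 (1901 bp) and Atoh1 (1451 bp). Across all peaks, 1316 were upstream of the start, 1214 lay past it on the downstream side and 30 covered it. The 1214 include peaks inside genes, and the authors' downstream class, which holds the Neurog2 peak, had 834. With peaks chosen for their genes, this is a description.

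**Figure D2:**
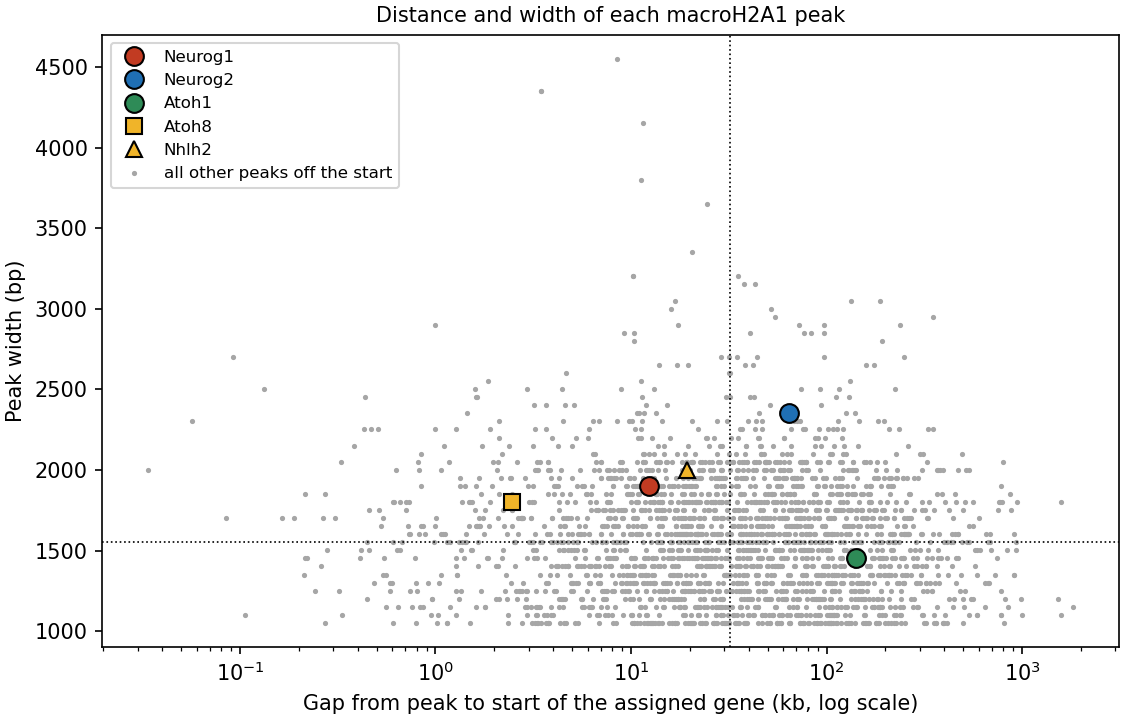
Width in bp against the gap to the start of the assigned gene in kb (log scale) for each peak that does not cover a gene start, with the peaks of Neurog1, Neurog2 and Atoh1 as circles, those of the related genes Atoh8 and Nhlh2 as a square and a triangle, and dotted lines at the medians of all peaks (32.2 kb and 1551 bp). Neurog1 lies left of the median gap and Neurog2 and Atoh1 right of it, and only Atoh1 of the 5 lies below the median width.

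The peaks also differed in how isolated they were. The nearest other peak was 449 kb from the Neurog1 peak, 14.8 kb from the Neurog2 peak and 1826 kb from the Atoh1 peak, against a median of 224 kb over the 2558 distinct regions of the list. Of all regions, 68.6% had a closer neighbour than the Neurog1 peak, 8.76% a closer one than the Neurog2 peak and 96.1% a closer one than the Atoh1 peak. The Neurog2 peak was thus 1 of a pair, and the Atoh1 peak stood among the most isolated regions. Counted around gene starts, Neurog1 had 1 peak within 300 kb, Neurog2 had 2 and Atoh1 had 1. Among the 1408 genes with a symbol and an assigned peak, 663 (47.1%) had 1 peak within that window, 418 (29.7%) had 2 and 292 (20.7%) had 3 or more. A single assigned peak, as each of the 3 genes had, was the case for 1208 of the 1408 (85.8%).

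**Figure D3:**
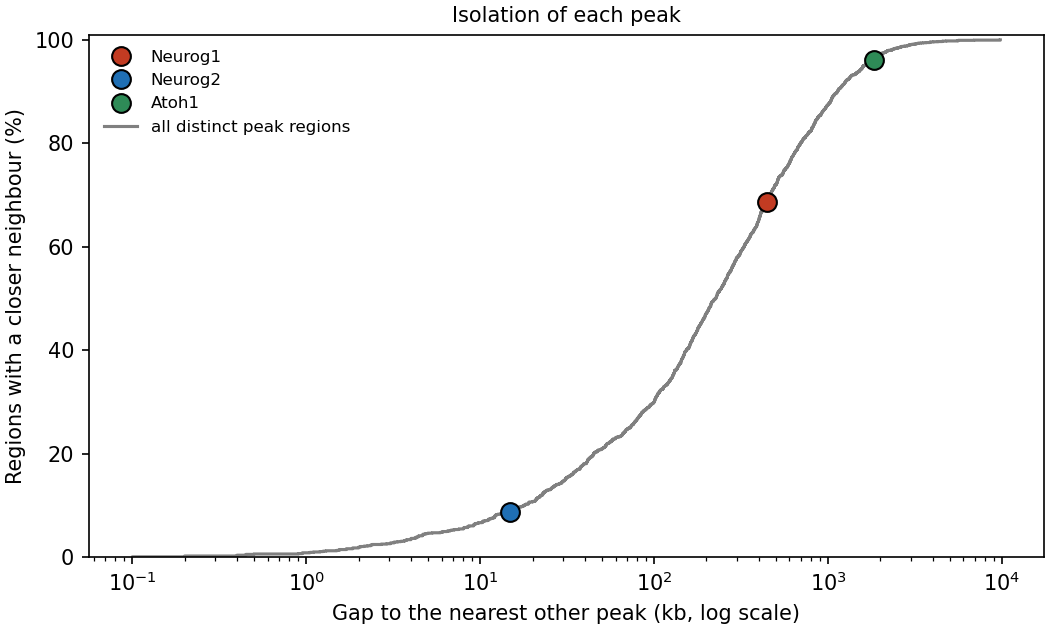
Gap from each peak to the nearest other peak on its chromosome in kb (log scale), with the percent of the 2558 distinct regions that have a closer neighbour on the vertical axis; the peaks of Neurog1, Neurog2 and Atoh1 are circles on the curve of all regions. The Neurog2 peak is at 14.8 kb near the low end, Neurog1 at 449 kb and Atoh1 at 1826 kb near the top.

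Relatives of the 3 genes were taken from a list of 29 neural bHLH genes. In it 5 genes had an assigned peak, where 6.16% of 21631 protein-coding genes had one that could be matched by symbol. The 3 genes were chosen for their peaks, so nothing is read from their part of this count. Of the other 26 genes, 2 had a peak (7.69%), a share near that of all genes. They were Atoh8, an atonal-related factor, and Nhlh2, a factor of hypothalamic neurons. The Atoh8 peak, on chromosome 6 at 72181300 to 72183100, lay inside the gene, 2.47 kb from its start and so nearer than any of the 3, and was 1801 bp wide. The Nhlh2 peak, on chromosome 3 at 101833500 to 101835500, lay downstream, 19.4 kb from the start, and was 2001 bp wide. Of the 29 genes, 3 had a peak within 50 kb of the start (Atoh8, Neurog1 and Nhlh2), where 4.35% of all genes had one, and 4 had a peak wider than the median (these and Neurog2), where 3.22% of all genes did. Without the genes chosen for their peaks, both counts were 2 of 26. The list assigned no peak to Neurog3, the Neurod genes, Atoh7 or the Olig genes. A peak near such a gene may stand under a neighbour with a closer start.

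The Notch pathway, which restrains proneural genes, had assigned peaks at 4 of 32 genes (12.5%), beside 6.16% of all protein-coding genes. With so few genes the difference was not tested. Hes3, a bHLH repressor, had 1 inside the gene at 3.62 kb from its start, and Numb, an inhibitor of Notch, had 1 inside the gene at 6.13 kb. Dlk1, a non-canonical ligand, had 1 upstream at 7.11 kb. Nrarp, a feedback inhibitor of Notch, had 2 upstream, at 22.2 and 33.2 kb. All 5 of these peaks were nearer to their gene start than those of Neurog2 and Atoh1, and 3 of the 5 were nearer than that of Neurog1.

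Among the E proteins, the partners of proneural factors, and the Id proteins, which sequester these partners, 2 of 7 genes (28.6%) had an assigned peak, and both encode Id proteins. The Id2 peak was upstream, 119 kb from the gene start, and 1951 bp wide. The Id4 peak was downstream, 55.5 kb from the gene start, and 1501 bp wide. Both were distant, like those of Neurog2 and Atoh1, and no peak was assigned to Id1, Id3, Tcf3, Tcf4 or Tcf12. These lists were tested for nothing, and with so few genes their shares are descriptions beside the 6.16% of all genes.

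**Figure D4:**
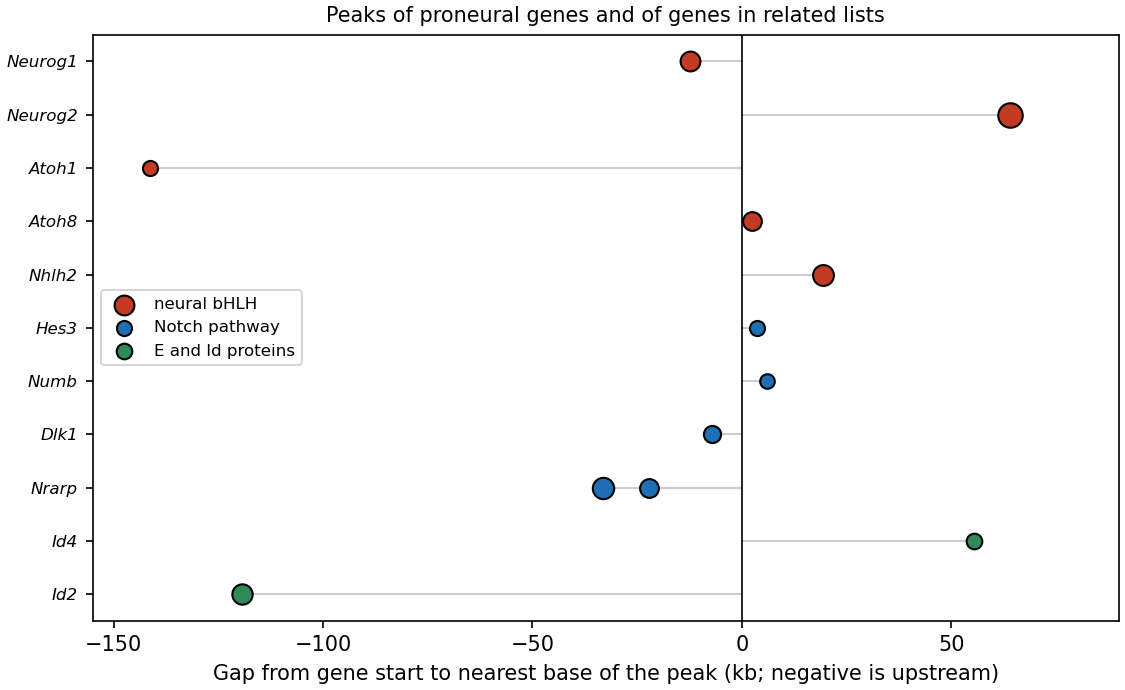
Gap between each assigned peak and its gene start in kb (negative is upstream) for Neurog1, Neurog2 and Atoh1 at the top and for the genes with a peak in the neural bHLH, Notch pathway and E and Id protein lists, with the area of a circle growing with the square of peak width. The circles of Atoh1 (141 kb) and Id2 (119 kb) lie farthest out, and those of Atoh8, Hes3, Numb and Dlk1 lie within 8 kb of the start.

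Peaks of 2 other families of developmental transcription factors give a scale for these distances. The gaps of the 3 proneural peaks ran from 12.4 to 141 kb with a median of 64.0 kb. Those of 6 peaks at 3 Pax genes ran from 14.1 to 76.5 kb with a median of 45.9 kb, and those of 5 peaks at 4 Sox genes from 1.70 to 152 kb with a median of 25.1 kb. These ranges overlap, and no family had a peak over a gene start. Only 30 of all 2560 peaks covered one, so this is not particular to these families.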

How the data were processed

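MacroH2A1 and IgG chromatin immunoprecipitation libraries, 1 each, were sequenced from E14 cells. Reads were mapped with Bowtie to NCBIM37 (mm9), per the submitters' processing notes. The authors deposited 1 list of peak positions, widths and assigned genes. Each of its 2560 rows, counted here as peaks, has 1 gene, chosen by its nearest start. The rows cover 2558 distinct regions, because some regions stand on more than 1 row. The names of the peaks carry the tag CCAT, also the name of a peak caller. For that caller the version, threshold, control and read filters are not stated in the labels or the file, and values of the IgG library were not analysed here. All starts and ends are multiples of 50 bp, which limits each distance. The assigned gene has no usable symbol for 892 peaks, which cannot be matched to genes by name.

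Distances were taken between the gene start and the peak edge nearer to it, 0 where the peak covers the start, because the deposited distance runs to the lower coordinate, and the geometry was tested on simulated intervals. Genes were matched to RefSeq (GRCm38.p6) by symbol or synonym within a chromosome, and only gene order, names, lengths and promoters were taken from it. Named were the 3 genes, genes assigned to a peak within 300 kb, the next peaks on each side, host genes and members of 3 lists. The next peaks and hosts, and the list genes without a peak, were named after the values were seen. The annotation around the Atoh1 peak is not reported here. The genes and lists were chosen with earlier results of these data known. Python 3.11.15, pandas 2.3.3 and scipy 1.17.1 were used.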

Additional observations from a re-analysis of the deposited data

How the results depend on the processing

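No paired analysis was possible because there is 1 library per antibody. Counted to the middle of the peak, the distances were 13.3 kb for Neurog1, 65.2 kb for Neurog2 and 142.0 kb for Atoh1, and the deposited distance was 143 kb for Atoh1 and equal to the gap for the other two. Among peaks with a gene symbol, 30.6% were closer to their gene start than the Neurog1 peak, 70.5% than the Neurog2 peak and 87.3% than the Atoh1 peak, and among peaks wider than the median 67.9% were closer than the Neurog2 peak. Neurog1 had 3 peaks within 1 Mb of its start. Atoh1 had 0 peaks within 100 kb and 0 wider than the median within 300 kb, and Neurog2 had 1 wider than the median within 300 kb. Neural bHLH genes with a peak numbered 3 within 50 kb of the start. The other 12 of 25 alternatives stayed within the 95% Wilson interval of the value reported, or within 1.5 times it for counts, or were equal. The interval served only as a cutoff: the alternatives reuse the same list from 1 library, so it measures no spread between libraries. The Atoh1 peak, narrower than the median, could not be ranked among the wider peaks. Depth and enrichment per peak are unknown, and absence of a peak is absence from the list.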

Other observations

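Each peak name in the list ends in a number from 1 to 2560 whose meaning is not stated. Among the 5 neural bHLH genes with a peak, this number was 82 for Neurog2, 326 for Nhlh2, 330 for Neurog1, 777 for Atoh1 and 2541 for Atoh8. The Alpk1 peak beside that of Neurog2 had the number 1966.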
